A study of Homo sapiens with 12 samples.

Results

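SDF-1a together with TCM formula SKHS was compared with the solvent DMSO in C28/I2, a human chondrocyte line immortalised with the SV40 large T antigen, a viral protein that binds p53 and RB. The SDF1_SKHS group received 50 nM SDF-1a and 1% SKHS, and the DMSO group received 0.5% DMSO. Both were kept in serum-containing medium for 48 h, with 3 cultures in each group, and total RNA was sequenced. They are 6 of the 12 cultures of the series. The others received 50 nM SDF-1a alone (SDF1, 3 cultures) or 50 nM SDF-1a with 10 µM Astragaloside IV (SDF1_AS4, 3 cultures). The authors' deposited table has no column for SDF1_SKHS over DMSO. The log2 fold change of each gene was therefore taken as the sum of its values for SDF1_SKHS over SDF1 and for SDF1 over DMSO, and 17936 of the 19215 genes had both. The SDF1 level cancels in this sum if the deposited values were not shrunken and were scaled alike, which is not known. DMSO is named for the DMSO group alone and no vehicle is named for SKHS, so the effects of SDF-1a, SKHS and the solvent cannot be told apart in this comparison.

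SDF-1a, also called CXCL12, is a chemokine that signals through the Gi-coupled receptor CXCR4 and is removed by the scavenging receptor ACKR3. In cartilage it is known for raising matrix-degrading enzymes in chondrocytes. A second pathway that recurs below centres on ATF4, a transcription factor whose mRNA is translated when the initiation factor eIF2 is phosphorylated, for example when amino acids run short, and which raises amino acid synthesis enzymes, transporters and tRNA synthetases. Another is p53, which raises CDKN1A, an inhibitor of the kinases that drive the cell cycle.

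Values below are log2 fold changes of SDF1_SKHS over DMSO, so that 1 is a doubling and a negative value is lower with SDF-1a and SKHS, and the value after ± is a standard error on the same scale. The standard error was derived from the deposited p-values and adds the variances of both deposited comparisons, which counts the spread of the SDF1 cultures although their level cancels. It is therefore an upper bound where that cancelling holds, with a median of 0.21 over all genes. A gene was called changed when the Benjamini-Hochberg adjusted p of its two-sided z test over all 17936 genes was under 0.05. The table holds comparisons and no value per culture, so depth is unknown, the values of single cultures cannot be shown, and fewer cells of a kind cannot be told apart from less RNA per cell. The labels do not say that the cultures were independent, so the p-values speak for the spread among these cultures of a single line.

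With SDF-1a and SKHS, 3246 genes were higher (18.1% of those tested) and 3432 were lower (19.1%). In both directions together 6678 genes, or 37.2%, were called. The calls were of like number each way but not of like size. The median was 0.65 among genes called higher and -0.87 among genes called lower, and 583 genes were called at least 2-fold higher (3.25%) against 1431 at least 2-fold lower (7.98%). Among the 10933 genes with a standard error of at most 0.3, called precise here, the median was 0.03. Of these precise genes 54.3% were called, against 10.6% of the other genes. Most of the lists below hold mainly precise genes, so the shares over all genes tested are a low baseline for them. When the z value was instead referred to a t distribution (4 degrees of freedom), 1018 of the 17936 genes were higher and 1389 lower. List counts with the t distribution are to be read beside these.

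The 10 largest precise rises held genes of amino acid and glutathione metabolism and targets of p53. GDF15, a secreted stress hormone of the TGF-beta superfamily (chr19:18374731-18389176, plus strand, GRCh38), rose by 3.67 ± 0.28, or 12.7-fold, with a 95% interval of 3.12 to 4.22. TRIB3, a pseudokinase that dampens the ATF4 response, rose 8.97-fold (3.17 ± 0.17). CHAC1, which degrades glutathione, rose 7.69-fold (2.94 ± 0.18). SLC7A5, the large neutral amino acid transporter, rose 5.63-fold (2.49 ± 0.15), and NUPR1, a stress-induced chromatin protein, rose 5.51-fold (2.46 ± 0.14). The others among the 10 largest were RFLNA (2.68 ± 0.27), the histone gene H2AC6 (2.63 ± 0.25) and 3 p53 targets. These were BTG2, an antiproliferative regulator of mRNA decay (2.64 ± 0.21), BBC3, which encodes the pro-death BCL2 family protein PUMA (2.51 ± 0.26), and CDKN1A (2.51 ± 0.11), which lies at chr6:36676460-36687339 on the plus strand. The rises with the smallest p, all with an adjusted p under 0.05 by the z test, were CDKN1A, TRIB3, ASNS (2.35 ± 0.13) and NUPR1, of which ASNS encodes asparagine synthetase.

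The largest precise falls were led by 2 DNA helicases. PIF1, a helicase that acts at telomeres and replication forks (chr15:64815632-64825668, minus strand), had -3.60 ± 0.24, or 12.2-fold lower, with a 95% interval of -4.07 to -3.14. RTEL1, a helicase that unwinds telomere loops, had -3.59 ± 0.19. TONSL, which helps repair stalled forks, had -3.12 ± 0.17, and C21orf58, with no role given here, had -2.96 ± 0.18. The remaining 6 were IGFN1 (-3.55 ± 0.26), ANO8 (-3.28 ± 0.20), ATG16L2 (-3.25 ± 0.19), AMH, the anti-Müllerian hormone (-3.23 ± 0.25), the fatty acid transport protein SLC27A3 (-3.19 ± 0.27) and SCX, the tendon transcription factor scleraxis (-3.14 ± 0.21). By smallest p the falls were MEGF6 (-2.85 ± 0.11), the cyclin CCNL2 (-2.25 ± 0.10), MTRNR2L2 (-2.85 ± 0.13) and the mitotic kinesin KIF18B (-2.94 ± 0.14). MTRNR2L2 is a nuclear copy of mitochondrial ribosomal RNA sequence, so its reads may be shared with the mitochondrial transcript, and RTEL1 overlaps a neighbouring gene. The largest precise falls were all rich in GC, from 56.8% for IGFN1 to 73.1% for AMH, beside a median of 49.5% over all annotated genes. Among the largest precise rises GC content ran from 42.0% for H2AC6 to 69.7% for BBC3. These falls kept their calls with length and GC trends removed, but the part of GC content in their size was not tested.

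**Figure D1:**
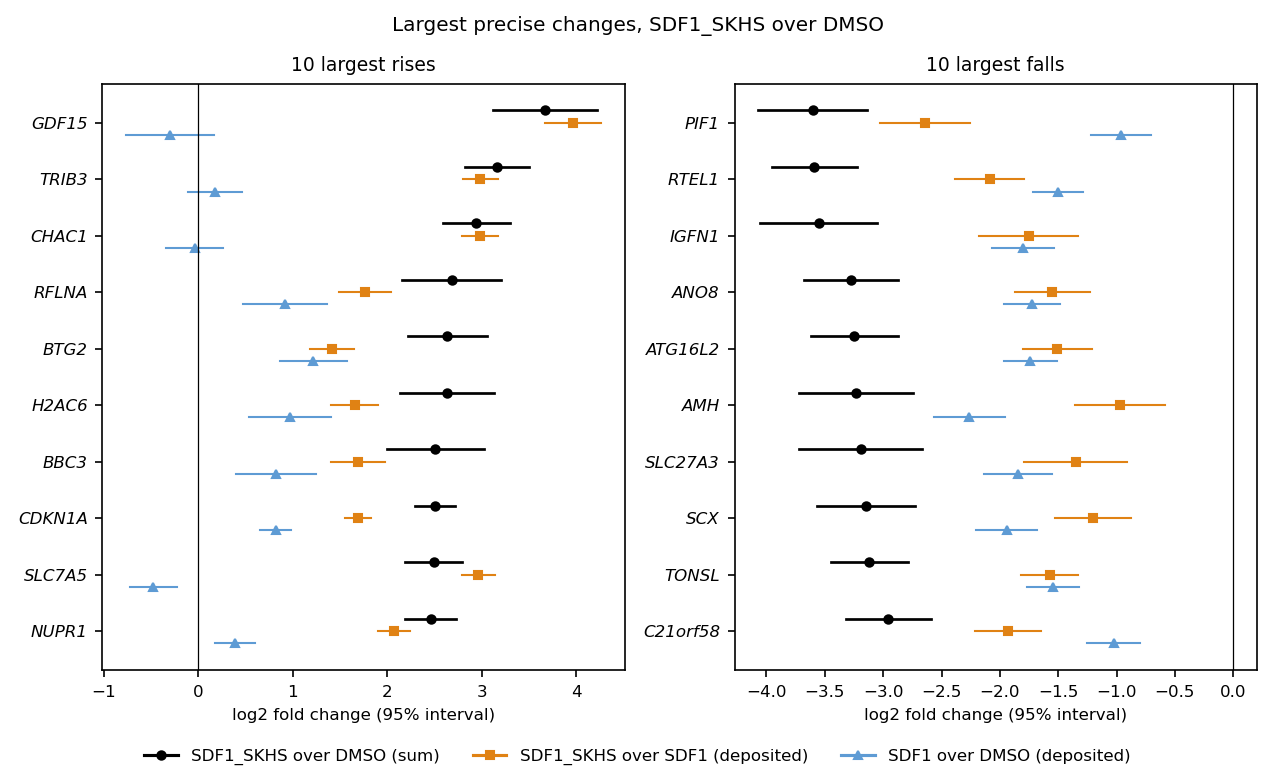
The 10 largest precise rises and the 10 largest precise falls of SDF1_SKHS over DMSO (black circles), with the deposited SDF1_SKHS over SDF1 (orange squares) and SDF1 over DMSO (blue triangles) values that sum to them, on a log2 axis with 95% intervals. GDF15, TRIB3, CHAC1 and SLC7A5 have their rise in the orange component, with blue values from -0.47 to 0.18, while IGFN1, ANO8, ATG16L2 and TONSL have both components below -1.

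The components of these sums differed from gene to gene. In the authors' deposited table GDF15 had 3.97 for SDF1_SKHS over SDF1 and -0.30 for SDF1 over DMSO. TRIB3 had 2.99 and 0.18, and SLC7A5 had 2.97 and -0.47, in the same order in the authors' deposited table. For CDKN1A the authors' deposited table gave 1.69 for SDF1_SKHS over SDF1 and 0.82 for SDF1 over DMSO. For AMH it was the second step that was larger, with -0.97 for SDF1_SKHS over SDF1 and -2.26 for SDF1 over DMSO in the authors' deposited table. Both steps use the same 3 SDF1 cultures, so an error in these cultures pushes them in opposite directions. It leaves the sum unchanged if the deposited values were not shrunken and were scaled alike.

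Genes of the ATF4 pathway were higher as a group. Of 42 measured members, 34 were higher and 1 was lower, with a median of 1.27, beside a median of -0.05 over all genes tested. ATF3, a transcription factor induced by ATF4, had the largest value (3.72 ± 0.33, 13.1-fold). ATF4 itself rose by 1.03 ± 0.11. Among enzymes of amino acid synthesis, ASNS rose 5.10-fold, PSAT1, which makes phosphoserine, rose 4.42-fold (2.14 ± 0.13), and CTH, which makes cysteine from cystathionine, rose 4.89-fold (2.29 ± 0.15). ALDH18A1, an enzyme of proline synthesis, was the member that fell (-0.40 ± 0.11, a call lost with the t distribution). DDIT3, which encodes the pro-death factor CHOP, did not pass the test (0.18 ± 0.18), nor did SLC3A2, the heavy chain that pairs with SLC7A5 (0.17 ± 0.12), FGF21 (2.96 ± 4.43) or SLC38A2 (-0.11 ± 0.14). With the t distribution 27 members were higher and 0 lower, and the median after removing trends with transcript length and GC content was 1.28.

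The cytosolic tRNA synthetases, which charge tRNAs with amino acids, had 14 of 20 higher, 2 lower and a median of 0.59, and with the t distribution 10 higher and 1 lower. GARS1 for glycine rose 2.94-fold (1.56 ± 0.10) and WARS1 for tryptophan rose 2.72-fold (1.44 ± 0.10). SARS1 for serine rose by 1.24 ± 0.11. VARS1 for valine had -1.19 ± 0.13, or 2.28-fold lower, and FARSA, a subunit of the phenylalanine enzyme, had -0.46 ± 0.16, a call lost with the t distribution. Of 34 genes of the ER chaperone and unfolded protein response list 16 were lower and 4 higher, with a median of -0.31, and with the t distribution 10 were lower and 2 higher. MANF had -1.55 ± 0.14, HSPA5, the chaperone BiP, had -1.28 ± 0.10, HSP90B1 had -1.18 ± 0.10 and CALR had -1.16 ± 0.10. HERPUD1 (1.15 ± 0.13) and XBP1 (0.62 ± 0.12) rose, as did the translocon subunits SEC61B (0.53 ± 0.12) and SEC61G (0.55 ± 0.13), whose calls were lost with the t distribution and once length and GC trends were removed (-0.091 and -0.0018).

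The promoters of ATF4 pathway members are shown because the group moved together. The composite element that ATF4 and C/EBP proteins bind was searched as TGATGNAA on both strands. The search covered the 250 bases before an annotated RefSeq start of each gene (GRCh38.p14), and alternative starts of the same gene were not searched. The element was in 4 of 32 members with a promoter sequence, 12.5%, beside 1.89% of 13905 promoters. No overlap with another motif was scored, and a match is not evidence of binding. The list was drawn up from members of the pathway, so its share of matches depends on that choice and is not a result of these cultures. The 3 with the smallest p that hold it are printed 5′ to 3′ on the strand of the gene, with the match in capitals. They are ASNS (chr7:97872409-97872658, minus strand), CHAC1 (chr15:40953221-40953470, plus strand) and ATF3 (chr1:212565157-212565406, plus strand). The ATF3 window is at the upstream end of a gene annotated at chr1:212565334-212620777, and any start further inside the gene was not searched.
ASNS: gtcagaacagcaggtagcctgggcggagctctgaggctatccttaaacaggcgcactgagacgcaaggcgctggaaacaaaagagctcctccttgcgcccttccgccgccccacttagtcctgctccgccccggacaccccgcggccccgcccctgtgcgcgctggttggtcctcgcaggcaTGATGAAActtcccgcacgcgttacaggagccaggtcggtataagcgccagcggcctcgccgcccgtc
CHAC1: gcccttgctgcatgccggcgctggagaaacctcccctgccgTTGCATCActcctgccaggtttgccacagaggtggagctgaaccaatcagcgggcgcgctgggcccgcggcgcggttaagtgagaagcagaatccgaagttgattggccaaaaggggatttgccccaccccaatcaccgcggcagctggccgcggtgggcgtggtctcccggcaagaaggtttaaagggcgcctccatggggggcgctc
ATF3: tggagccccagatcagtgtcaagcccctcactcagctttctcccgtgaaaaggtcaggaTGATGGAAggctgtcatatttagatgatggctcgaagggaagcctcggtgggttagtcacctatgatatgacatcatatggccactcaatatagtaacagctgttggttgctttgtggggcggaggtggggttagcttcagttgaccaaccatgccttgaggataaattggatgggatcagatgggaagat
In CHAC1 the match is on the other strand, so the capitals show its reverse complement. These 3 genes rose 5.10-fold, 7.69-fold and 13.1-fold.

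Targets of p53 were higher. Of 32 measured members 29 were higher and 1 was lower, with a median of 1.01. CDKN1A, at 5.70-fold, had the smallest p, followed by SESN2, which restrains mTORC1 (2.33 ± 0.14, 5.04-fold), GDF15 and MDM2, the ubiquitin ligase that degrades p53 (1.53 ± 0.12, 2.89-fold). SESN2 and GDF15 are also on the ATF4 list, so the lists are not independent. POLH, a DNA polymerase that copies past damage, was the member that fell (-0.41 ± 0.14, a call lost with the t distribution). PERP (0.27 ± 0.11) and FAS (0.31 ± 0.15) did not pass the test. With the t distribution 22 members were higher and 0 lower. In the authors' deposited table the list had a median of 0.88 for SDF1_SKHS over SDF1 and 0.34 for SDF1 over DMSO.

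Every measured gene of the mitosis list was lower. All 45 fell, beside 19.1% of all genes tested, and the values ran from -2.08 to -0.53 with a median of -1.32. MKI67, the proliferation antigen Ki-67 (chr10:128096659-128126385, minus strand), had -2.05 ± 0.12, or 4.13-fold lower. CENPE, a kinetochore motor, had -2.08 ± 0.17 and CENPF, a kinetochore protein, had -1.96 ± 0.12. The microtubule depolymerase KIF2C had -1.99 ± 0.12 and HJURP, the chaperone that loads centromeric histone, had -1.75 ± 0.11. FOXM1, a transcription factor of mitotic genes, fell least (-0.53 ± 0.11). In the authors' deposited table the median of the list was -1.56 for SDF1_SKHS over SDF1 and 0.14 for SDF1 over DMSO. With the t distribution 43 of the 45 were still called.

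DNA replication and G1/S genes were lower in 42 of 45 members and higher in 0, with a median of -1.15. LIG1, the ligase that joins Okazaki fragments, had -2.22 ± 0.14, or 4.66-fold lower. POLE, the leading strand polymerase (-1.82 ± 0.12), FEN1, a flap endonuclease (-1.82 ± 0.12), and RRM2, a subunit of ribonucleotide reductase (-1.64 ± 0.11), came next by p. The 3 members that did not pass were MCM6 (-0.08 ± 0.12) and the cyclins CCNE1 (0.08 ± 0.18) and CCND1 (0.09 ± 0.10). The t distribution left 34 members lower. The median in the authors' deposited table was -0.76 for SDF1_SKHS over SDF1 and -0.35 for SDF1 over DMSO.

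Promoters of mitotic genes are shown for the same reason as those of the ATF4 list. The cell cycle homology region, searched as TTTGAA on both strands in the same 250 bases, was in 20 of 39 mitosis promoters, 51.3%, beside 9.82% of 13905 promoters. This share also depends on how the list was chosen and is not a result of these cultures. The 3 holders with the smallest p are printed as above with matches in capitals. They are MKI67 (chr10:128126424-128126673, minus strand), HJURP (chr2:233854536-233854785, minus strand) and PLK1, a mitotic kinase (chr16:23678639-23678888, plus strand).
MKI67: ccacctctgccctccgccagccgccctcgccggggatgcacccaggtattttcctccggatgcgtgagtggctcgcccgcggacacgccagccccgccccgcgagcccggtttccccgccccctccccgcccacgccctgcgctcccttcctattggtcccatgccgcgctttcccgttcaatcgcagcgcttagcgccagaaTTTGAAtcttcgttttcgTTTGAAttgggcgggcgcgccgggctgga
HJURP: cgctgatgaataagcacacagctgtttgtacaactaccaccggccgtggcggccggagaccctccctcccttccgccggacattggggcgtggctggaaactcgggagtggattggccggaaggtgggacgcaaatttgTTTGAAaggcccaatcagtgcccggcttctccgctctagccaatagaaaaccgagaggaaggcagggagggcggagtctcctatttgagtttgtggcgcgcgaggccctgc
PLK1: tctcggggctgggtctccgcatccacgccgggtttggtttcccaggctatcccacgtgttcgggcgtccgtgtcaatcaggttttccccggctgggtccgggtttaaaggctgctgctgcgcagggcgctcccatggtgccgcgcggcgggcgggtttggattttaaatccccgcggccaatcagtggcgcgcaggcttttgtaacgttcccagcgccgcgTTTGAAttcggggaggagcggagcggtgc
MKI67 holds 2 matches, and PLK1 had -1.57 ± 0.11.

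**Figure D2:**
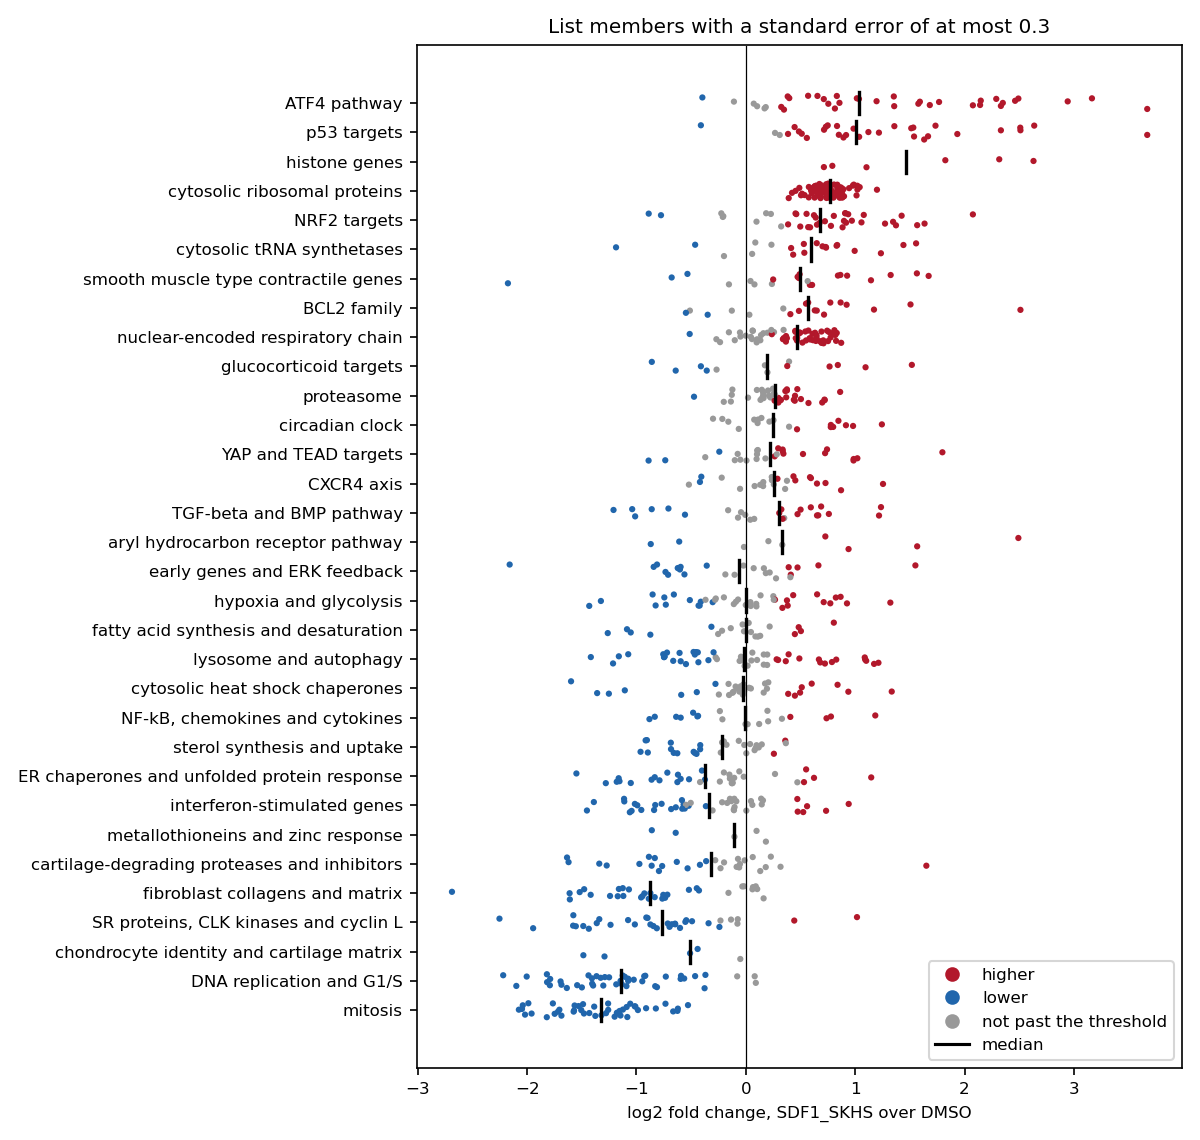
Log2 fold changes of SDF1_SKHS over DMSO for the precise members of 32 gene lists (1 point a gene, red higher, blue lower, grey not past the threshold), with the lists ordered by the median of all their measured members and the bar at the median of the plotted members. The ATF4 and p53 lists reach 3.67 at the right, the ribosomal proteins form a tight group between 0.39 and 1.20, and all 45 mitosis genes lie left of 0.

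Antioxidant genes driven by NRF2 were higher in 30 of 42 measured members and lower in 2, with a median of 0.66, and with the t distribution higher in 17 and lower in 1. SLC7A11, the cystine transporter that supplies glutathione synthesis, rose 4.22-fold (2.08 ± 0.15). SRXN1, which repairs peroxiredoxins, rose 3.11-fold (1.63 ± 0.11), the quinone reductase NQO1 rose 2.96-fold (1.57 ± 0.10) and the thioredoxin reductase TXNRD1 rose 2.59-fold (1.37 ± 0.11). NFE2L2, which encodes NRF2, rose by 0.90 ± 0.11. HMOX1, heme oxygenase, did not pass the test (0.32 ± 0.14). MAFK (-0.89 ± 0.12) and CBR3 (-0.78 ± 0.21, a call lost with the t distribution) fell. The core of the antioxidant response element, searched as TGACNNNGC on both strands, was in 8 of 31 promoters, 25.8%, beside 11.8% of 13905. Here too the share depends on how the list was chosen. Of 39 heat shock chaperones, 34 of them precise, 9 were higher (23.1%) and 7 lower (17.9%). These shares lie near the 18.1% and 19.1% of all genes tested, but 54.3% of precise genes were called in either direction. The median of the list was -0.03, and with the t distribution 3 were higher and 4 lower. HSPA1A (-1.25 ± 0.12) and HSPA1B (-1.60 ± 0.13), near-identical copies that can share reads, fell. Of 10 metallothionein and zinc genes, 3 fell (30%) and 0 rose, beside 19.1% lower and 18.1% higher of all genes tested. MT1X (-0.86 ± 0.13) was among those that fell, while 1 was lower with the t distribution. Of 14 aryl hydrocarbon receptor genes 4 were higher (28.6%) and 2 lower (14.3%), beside 18.1% and 19.1% of all genes tested. With the t distribution 2 were higher and 0 lower. The 2 left were SLC7A5, one of the largest rises named above, and NQO1, also on the NRF2 list, so the lists are not independent. CYP1A1, a target of the receptor, had -0.87 ± 0.22, a call lost with the t distribution.

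All 79 cytosolic ribosomal protein genes were higher, beside 18.1% of all genes tested. The t distribution left 70 higher. Their values ran from 0.39 to 1.20 with a median of 0.77, and RPS27 (1.20 ± 0.12) and RPL30 (1.04 ± 0.10) were among the highest. Many ribosomal protein genes have processed copies elsewhere in the genome that can share reads. The median in the authors' deposited table was 0.28 for SDF1_SKHS over SDF1 and 0.49 for SDF1 over DMSO. Of 62 nuclear-encoded respiratory chain genes 41 were higher and 1 lower (median 0.47), and with the t distribution 14 and 0, with NDUFA8 of complex I at 0.87 ± 0.13 and SDHA of complex II at -0.51 ± 0.10, a call lost with the t distribution. Of 39 proteasome genes 19 were higher and 1 lower (median 0.26), and with the t distribution 5 and 0, with the activator PSME3 at 0.86 ± 0.10 and PSMD14, a deubiquitinase of the lid, at -0.47 ± 0.13, a call lost with the t distribution.

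The genes of these 3 lists are short, with a median transcript length of 1171 nucleotides for ribosomal proteins, 1257 for the respiratory chain and 1579 for the proteasome, beside 3151 over all annotated genes. Among precise genes, 50.8% of the tenth with the shortest transcripts (median 1152 nucleotides) were called higher and 11.1% lower, against 19.6% and 30.2% in the tenth with the longest (median 9777). The median GC content of the longest protein-coding transcript was 48.0% among genes called higher, 52.4% among genes called lower and 49.2% among the rest. The median exon number was 7, 12 and 8. Lengths are also of this transcript, which need not be the one that these cells express. With trends on length and GC content removed, 63 of the 79 ribosomal genes were higher with a median of 0.46. The respiratory chain then had 18 higher and 5 lower with a median of 0.17, and the proteasome had 9 higher and 3 lower with a median of 0.04. Under the same removal 45 mitosis genes were lower and 34 genes of the ATF4 list were higher. The part of RNA quality or library preparation in the length trend was not tested.

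**Figure D3:**
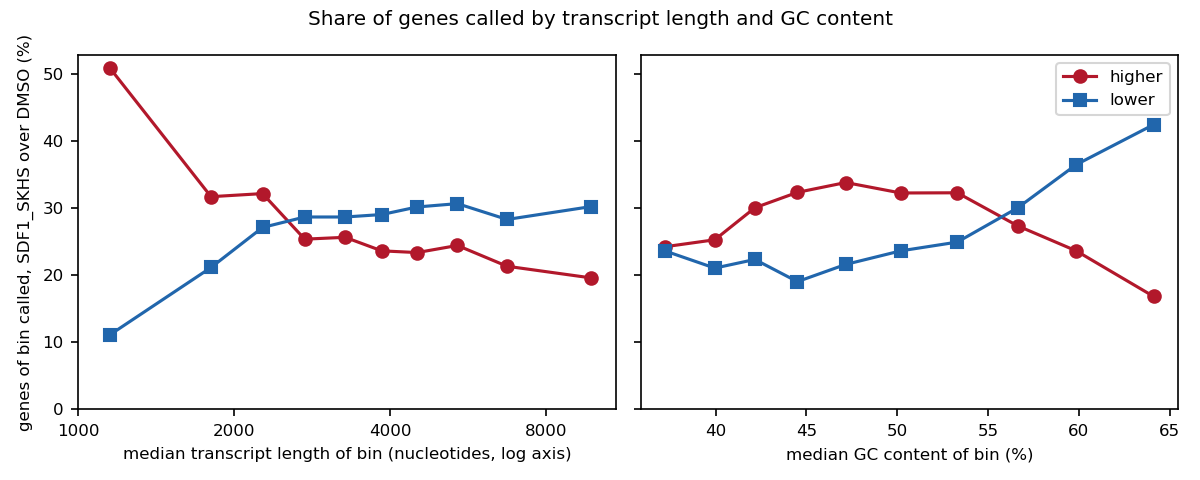
Share of precise genes called higher (red circles) and lower (blue squares) in SDF1_SKHS over DMSO, in 10 equal bins of transcript length (left, log axis in nucleotides) and of GC content (right, in %). The share called higher is 50.8% in the shortest bin and 19.6% in the longest, and the share called lower reaches 42.4% in the bin richest in GC.

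SR proteins, which govern splice site choice, with CLK kinases and L cyclins, were lower in 28 of 34 members and higher in 2, with a median of -0.76, and with the t distribution lower in 21 and higher in 1. CCNL2 fell by 2.25 ± 0.10, or 4.77-fold lower, RBM6 had -1.95 ± 0.11, CLK2, a kinase of SR proteins, had -1.55 ± 0.15, and CCNL1 had -1.49 ± 0.14. SRSF8 (1.02 ± 0.16) and SRSF9 (0.44 ± 0.12, a call lost with the t distribution) were the members that rose. In the authors' deposited table the median was -0.23 for SDF1_SKHS over SDF1 and -0.56 for SDF1 over DMSO.

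Of the CXCR4 axis, 9 of 28 measured members were higher (32.1%) and 3 lower (10.7%), beside 18.1% and 19.1% of all genes tested. The median of the list was 0.20, and with the t distribution 5 were higher and 0 lower. CXCR4, the signalling receptor (chr2:136114349-136118165, minus strand), had -1.64 ± 0.47, or 3.11-fold lower, with an adjusted p of 0.0019 by the z test and of 0.10 with the t distribution. Its values in the authors' deposited table were -1.64 for SDF1_SKHS over SDF1 and 0.00 for SDF1 over DMSO. ACKR3, the scavenging receptor (chr2:236567787-236582358, plus strand), rose 2.39-fold (1.25 ± 0.13). CXCL12, the cells' own transcript for the ligand, had -2.62 ± 1.86 and did not pass the test, with an adjusted p of 0.30 by the z test. Among signalling members, GNB1, a G protein beta subunit (0.65 ± 0.09), the GTPase RAC1 (0.59 ± 0.10) and MAPK3, which encodes ERK1 (0.87 ± 0.16), rose. The kinase AKT1 (-0.41 ± 0.10) and GRK2, which desensitises receptors (-0.42 ± 0.14), fell, and both calls were lost with the t distribution and with length and GC trends removed.

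Cartilage-degrading proteases and inhibitors, counted as 1 list, were lower more often than higher. Of 40 members 18 were lower and 1 was higher, beside 19.1% and 18.1% of all genes tested, with a median of -0.48. The collagenases MMP1 (chr11:102789920-102798160) and MMP13 (chr11:102942995-102955734) and the stromelysin MMP3 (chr11:102835801-102843803) lie in 1 cluster on the minus strand. MMP1 had -1.62 ± 0.18, or 3.08-fold lower, MMP13 had -1.64 ± 0.26, or 3.11-fold lower, and MMP3 had -1.34 ± 0.10, or 2.53-fold lower. The authors' deposited table gave -0.42 for SDF1_SKHS over SDF1 and -1.20 for SDF1 over DMSO for MMP1, and -1.07 and -0.56, in that order, for MMP13. MMP24, a membrane-bound member, was the member that rose (1.65 ± 0.25). ADAMTS5, the main aggrecanase, had 1.09 ± 4.94, which gives no direction, and the inhibitors TIMP1 (-0.08 ± 0.13), TIMP2 (0.23 ± 0.10) and TIMP3 (-0.06 ± 0.10) did not pass the test. With the t distribution 8 members were lower.

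Of the cartilage genes, few were measured precisely. Of 26 members of the chondrocyte identity and matrix list 5 were precise, 9 were lower and 0 higher, with a median of -0.78, and with the t distribution 3 were lower. ACAN, the core protein of the cartilage proteoglycan aggrecan, had -1.29 ± 0.22, or 2.45-fold lower, and COL11A2 had -2.61 ± 0.33. CHI3L1, a secreted glycoprotein of chondrocytes, had -1.49 ± 0.12 and CILP, a matrix protein, had -1.84 ± 0.36, a call lost with the t distribution. SOX9, the master regulator of chondrocytes, had -0.44 ± 0.14, a call lost with the t distribution. COL2A1, the collagen that defines hyaline cartilage, had 0.50 ± 3.53, which gives no direction. The table holds no expression levels, so chondrocyte identity could not be checked by level. Of markers of other cell types, 0 of 7 for leukocytes and 0 of 5 for endothelial cells were called in either direction, beside 37.2% of all genes tested, but 1 and 0 of them were precise, so they could hardly have been called. Of 6 epithelial markers, 2 of them precise, KRT18 (1.00 ± 0.12) and KRT8 (0.42 ± 0.15, a call lost with the t distribution) rose, whose part in the results was not tested.

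Of 46 fibroblast collagen and matrix genes, 33 of them precise, 27 were lower and 1 was higher, with a median of -0.75. COL7A1, the anchoring fibril collagen (chr3:48564073-48595267, minus strand), had -2.69 ± 0.14, or 6.44-fold lower. COL5A1 had -1.52 ± 0.11, COL16A1 had -1.61 ± 0.12 and COL6A1 had -1.48 ± 0.13. LUM, the proteoglycan lumican, was the member that rose (1.55 ± 0.58), a call lost with the t distribution, under which 22 members were lower. Of 23 contractile genes of the smooth muscle type 14 were higher and 3 lower, with a median of 0.57, and with the t distribution 6 were higher and 1 lower. ACTA2, smooth muscle actin, rose 3.19-fold (1.67 ± 0.12), ACTG2 rose 2.96-fold (1.56 ± 0.16), TAGLN rose 2.21-fold (1.14 ± 0.11), and TPM2, a tropomyosin, had -2.18 ± 0.15, or 4.52-fold lower. In the authors' deposited table ACTA2 had 0.38 for SDF1_SKHS over SDF1 and 1.29 for SDF1 over DMSO.

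Of 26 YAP and TEAD targets 12 were higher (46.2%) and 3 lower (11.5%), beside 18.1% and 19.1% of all genes tested. The median of the list was 0.22, and with the t distribution 5 were higher and 1 lower. DLC1 had 1.80 ± 0.14, while CCN1, a classic target, had -0.24 ± 0.10, a call lost with the t distribution. Of 30 TGF-beta and BMP genes 12 were higher and 6 lower (median 0.14), and with the t distribution 5 and 4. The receptor TGFBR2 rose by 1.24 ± 0.16 and the feedback inhibitor PMEPA1 by 1.22 ± 0.13, while FST, the activin antagonist follistatin, had -1.21 ± 0.15. Of 33 early and ERK feedback genes 7 were higher (21.2%) and 10 lower (30.3%), beside 18.1% and 19.1% of all genes tested. Their median was 0.07, and with the t distribution 2 were higher and 5 lower. FOS had -2.16 ± 0.25 and JUN had -0.81 ± 0.11, the phosphatase DUSP5 rose by 1.55 ± 0.16, and EGR1 (-0.19 ± 0.18) did not pass the test.

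Of 37 NF-kB, chemokine and cytokine genes, 19 of them precise, 5 were higher (13.5%) and 8 lower (21.6%), with a median of -0.06, shares near the 18.1% and 19.1% of all genes tested. The t distribution left 1 higher and 0 lower. CXCL8, the neutrophil chemokine IL-8, had -0.83 ± 0.18, a call lost with the t distribution, with -1.46 for SDF1_SKHS over SDF1 and 0.63 for SDF1 over DMSO in the authors' deposited table. IL6 had -0.31 ± 0.84 and did not pass the test, and IL32 rose by 1.18 ± 0.14. Interferon-stimulated genes were lower in 22 of 52 members and higher in 6, with a median of -0.33, and with the t distribution in 9 and 0. Their median in the authors' deposited table was 0.20 for SDF1_SKHS over SDF1 and -0.53 for SDF1 over DMSO, so the fall was in the second of these. PARP12 had -1.45 ± 0.15, IFIT1, which binds foreign RNA, had -1.39 ± 0.16, and STAT2, a subunit of the interferon-activated factor, had -1.04 ± 0.12. IFIT2 (0.94 ± 0.24) and TRIM22 (0.73 ± 0.17) rose, calls lost with the t distribution.

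Sterol genes, many of them driven by SREBP2 when cholesterol is low, were lower in 14 of 32 members (43.8%) and higher in 3 (9.4%). The shares over all genes tested were 19.1% and 18.1%. The median of the list was -0.22, and with the t distribution 5 were lower and 0 higher. NPC1, which exports cholesterol from lysosomes, had -0.96 ± 0.10, and DHCR7, which makes cholesterol in its last step, had -0.90 ± 0.11. The 3 members that rose were ABCG1, a cholesterol exporter (2.68 ± 0.97), ACAT2 (0.36 ± 0.11) and FDFT1 (0.26 ± 0.10), all calls lost with the t distribution. The list medians of the 2 steps had opposite signs in the authors' deposited table, with -0.76 for SDF1_SKHS over SDF1 and 0.51 for SDF1 over DMSO. Of 21 fatty acid genes 4 were higher (19.0%) and 5 lower (23.8%), with a median of -0.02. These shares are near the 18.1% and 19.1% of all genes tested, but 20 of the 21 were precise, and 54.3% of precise genes were called. With the t distribution 1 was higher and 3 were lower, and FASN, fatty acid synthase, had -1.09 ± 0.12. Of 40 hypoxia and glycolysis genes, 39 of them precise, 12 were higher (30%) and 12 lower (30%), beside 18.1% and 19.1% of all genes tested. With the t distribution 5 were higher and 5 lower, and the list median of 0.02 turned to -0.02 when the values were centred. NDRG1 rose by 1.32 ± 0.10 and ENO2, a glycolytic enzyme, had -1.43 ± 0.12.

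By its q-value the authors' deposited table called 5918 of 18251 genes for SDF1_SKHS over SDF1 (32.4%, with 15.8% higher and 16.7% lower) and 6301 of 18162 for SDF1 over DMSO (34.7%, with 17.2% higher and 17.5% lower). Some genes were called in both in opposite directions, and their sum was near 0, with its 95% interval inside -0.5 to 0.5. INSIG1, which holds SREBP in the ER, had -1.30 for SDF1_SKHS over SDF1 and 1.10 for SDF1 over DMSO in the authors' deposited table, and its sum was -0.20 ± 0.11. FDFT1, squalene synthase, had -0.81 and 1.07 in the authors' deposited table and summed to 0.26 ± 0.10, which passed the z test but not the t distribution. SLC3A2 had 1.23 for SDF1_SKHS over SDF1 and -1.06 for SDF1 over DMSO in the authors' deposited table, with a sum of 0.17 ± 0.12. IFI27, an interferon-stimulated gene, had 1.06 and -1.16 in the authors' deposited table and summed to -0.10 ± 0.18. Opposite signs are favoured by the shared SDF1 cultures, so these pairs of values are shown side by side and not counted.

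Other genes were called in the same direction in both steps. BTG2 had 1.42 for SDF1_SKHS over SDF1 and 1.22 for SDF1 over DMSO in the authors' deposited table. CTH had 1.00 and 1.29, and PLAC8 had 1.18 in each, also from the authors' deposited table, with sums of 2.29 ± 0.15 and 2.37 ± 0.17. NATD1 summed to 2.26 ± 0.23. Downward, IGFN1 had -1.75 and -1.80 and TONSL had -1.57 and -1.55 in the authors' deposited table, and ANO8 and ATG16L2 had both components beyond -1.5.

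**Figure D4:**
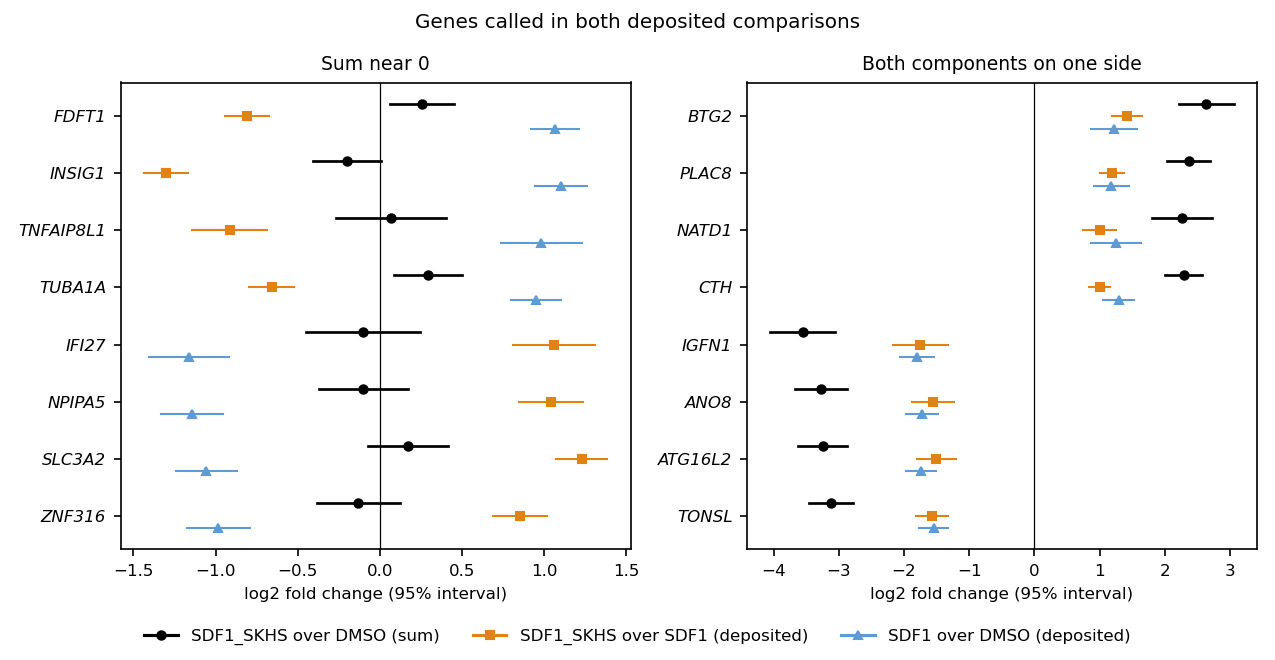
Genes called in both deposited comparisons, with SDF1_SKHS over DMSO (black circles), SDF1_SKHS over SDF1 (orange squares) and SDF1 over DMSO (blue triangles) on a log2 axis with 95% intervals. At the left the components lie on opposite sides of 0 and the sum lies between -0.20 and 0.29, and at the right both components lie on 1 side and the sums reach 2.64 and -3.55.

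SDF1_SKHS was set against SDF1_AS4 to see which values of the SKHS group also stood apart from those of the other product, given with the same dose of SDF-1a. The difference of the deposited values for each product over SDF1 was tested in the same way, and 3389 of 17927 genes were called (18.9%), with 1524 higher (8.5%) and 1865 lower (10.4%) in SDF1_SKHS. With the t distribution the count was 0, with 3017 genes at an unadjusted p under 0.05, beside 4890 for the z test. The largest precise rises of SDF1_SKHS over SDF1_AS4 by the z test were GDF15 (4.19 ± 0.29), SLC7A5 (3.12 ± 0.16), CHAC1 (3.06 ± 0.18) and TRIB3 (2.95 ± 0.16). The largest falls were PIF1 (-2.94 ± 0.25), MXD3, a MAX partner (-2.44 ± 0.17), PCYOX1L (-2.40 ± 0.20) and TROAP, a spindle protein (-2.30 ± 0.15).

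By list, 35 of 41 ATF4 pathway genes and 23 of 32 p53 targets were higher in SDF1_SKHS than in SDF1_AS4, and all 45 mitosis genes and 37 of 45 replication genes were lower. The list counts here are by the z test, beside 8.5% higher and 10.4% lower over all genes tested. With the t distribution 0 genes were called. Of 32 sterol genes 22 were lower and 0 higher. Of 79 ribosomal protein genes 1 was higher and 0 were lower, and the respiratory chain had 1 higher and 8 lower of 62, a lower share near that of all genes tested. The doses differ in kind (1% SKHS against 10 µM Astragaloside IV), so these are differences between the groups as treated. CXCR4 had -1.43 ± 0.47 and ACKR3 had 0.77 ± 0.14 for SDF1_SKHS over SDF1_AS4.

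**Figure D5:**
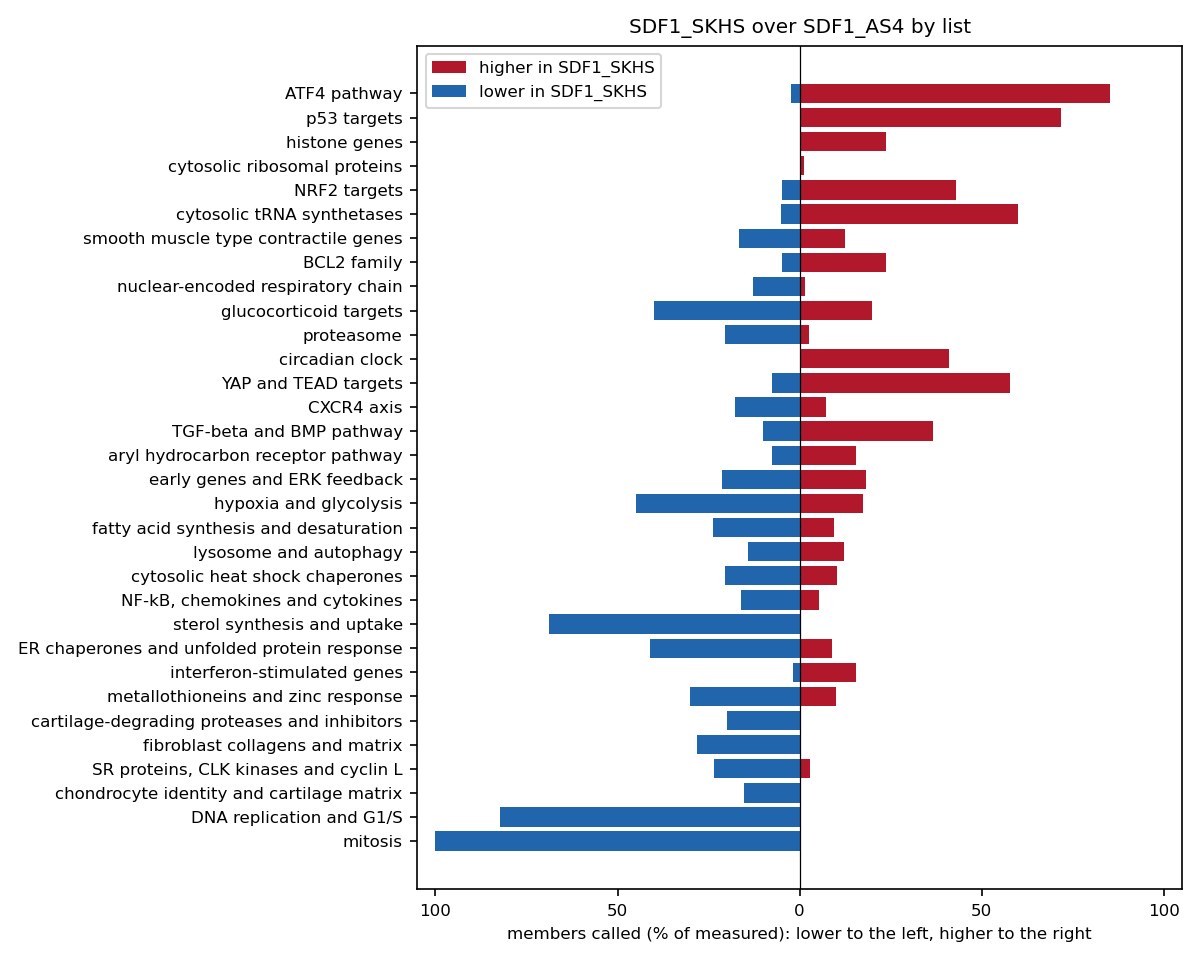
Share of the measured members of each list called higher (red, to the right) or lower (blue, to the left) in SDF1_SKHS over SDF1_AS4, in % on both sides of 0, in the order of the plot of list members. The mitosis list reaches 100% lower, and the ribosomal proteins, with 1 of 79 called, show almost no bar.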

How the data were processed

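Total RNA from C28/I2 cultures was sequenced, and the submitters' processing notes name Bowtie2 2.2.5, RSEM 1.2.12, DESeq2 1.4.5 and the build GRCh38.p13, without their order. Per the file headers the authors' table came from DESeq2, and it gives log2 fold changes, p-values and q-values for 3 comparisons, with no counts. Whether the deposited log2 fold changes were shrunken is not given in the sources used here. Adjusting the authors' deposited p-values by Benjamini-Hochberg returned their q-values within 1.29e-14. Each log2 value was read with the group named second on top, which 541 of 541 genes with a value in 1 of the comparisons used required. Dividing the size of the log2 value by the z value that its p stands for gave an implied standard error, on the assumption of a Wald test. Sums, bounding standard errors, two-sided z tests and adjusted p-values were computed over all genes with Python 3.11.15, numpy 2.4.6, scipy 1.17.1, pandas 2.3.3 and statsmodels 0.14.6, and plotted with matplotlib 3.10.9. The steps were tested on simulated data. Lengths and GC content came from GENCODE 29, which held 97.3% of the symbols, and trends were removed with cubic terms in both. The longest protein-coding transcript of each gene was used, or the longest of any kind where there was none.

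Members, lists and rules were chosen with earlier results of these data known. Genes named are the 10 largest precise rises and falls, the 4 with the smallest p each way, 13 genes of cartilage and CXCR4 interest, up to 4 called members of each list and direction with the largest of each list, 4 each way that moved back or further, and 4 each way for SDF1_SKHS over SDF1_AS4. Other list members were named after their values were seen, to show members that did not pass or the gene a list is named for. The alternatives tried were a t distribution, another standard error, filters on precision, a stricter threshold, centring, length and GC trends, and a 2-fold minimum. Values of some list members are not reported here.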

Additional observations from a re-analysis of the deposited data

How the results depend on the processing

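No paired analysis was possible because the table holds comparisons and no value per culture, and leaving out a culture was not run for the same reason. Of the 6678 genes called in SDF1_SKHS over DMSO, 2407 were called against a t distribution with 4 degrees of freedom (1018 higher and 1389 lower), 2014 with a 2-fold minimum (583 and 1431) and 824 when the whole 95% interval had to lie beyond 2-fold (158 and 666), a rule chosen after seeing the data. The t distribution was paired with standard errors derived from the normal, which makes it strict by construction. For SDF1 over DMSO the t distribution gave 1092 and the 2-fold minimum 993, and for SDF1_SKHS over SDF1 they gave 1350 and 825. For SDF1_SKHS over SDF1_AS4 the t distribution gave 0 (smallest adjusted p 0.0882), the 2-fold minimum 672, the interval rule 235, and 0.5 of the summed variances 5708. The share of calls that were higher was 48.6%, and 42.3%, 28.9% and 19.2% under the first 3 of these. The other settings kept each count within 1.5 times. Of 241 named genes 222 were called, and 57 lost their call with the t distribution. SEC61B and SEC61G turned to -0.091 and -0.0018 with length and GC trends removed, and the cause was not tested.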

Other observations

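In SDF1_SKHS over DMSO, 18.1% of all genes tested were higher and 19.1% lower. Of 21 BCL2 family genes 13 were higher and 2 lower, with a median of 0.55, and with the t distribution 7 and 0. Pro-death members such as BMF (1.51 ± 0.16) and BAX (0.72 ± 0.13) rose, and so did BCL2L1, which encodes the survival protein BCL-xL (0.92 ± 0.12), while BCL2L12 (-0.55 ± 0.16) and BCL2L2 (-0.35 ± 0.14) fell, 2 calls lost with the t distribution. MCL1, another survival gene, had 0.03 ± 0.11. Of 20 histone genes 7 were higher and 0 lower, and with the t distribution 5 and 0, led by H2AC6 and H2BC5 (2.32 ± 0.22), with H1-2 at 1.82 ± 0.14. Histone genes of the same family can be near-identical copies that share reads, and 6 of the 20 were precise.

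Of 49 lysosome and autophagy genes 15 were higher and 20 lower, and with the t distribution 7 and 10. The autophagosome proteins GABARAPL2 (1.21 ± 0.13) and MAP1LC3B (1.10 ± 0.12) and the receptor NBR1 (1.09 ± 0.12) rose, while the lysosomal enzymes NAGLU (-1.21 ± 0.12) and GAA (-1.16 ± 0.14) and the lipid transfer protein ATG2A (-1.42 ± 0.16) fell. Of 22 circadian clock genes 8 were higher and 0 lower, and with the t distribution 3 and 0. Those higher included TEF (1.24 ± 0.16) and the repressor NR1D1 (0.92 ± 0.15). Of 16 glucocorticoid targets 5 were higher and 4 lower, and with the t distribution 2 and 1, with TSC22D3 at 1.52 ± 0.21 and FKBP5 at -0.27 ± 0.13, which did not pass the test.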
